A study of Mus musculus with 13 samples.

Results

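The collectins and the proteases of the lectin pathway are covered here by 7 genes, taken as the rows of the deposited count table whose identifiers map to Colec10, Colec11, Colec12, Mbl1, Mbl2, Masp1 and Masp2. The table holds 22048 genes, and all 7 were found in it and passed the filter on low counts. The genes were chosen on their counts in livers depleted of hepatic stellate cells and in controls, as seen in earlier results. Their difference between depleted and control livers is therefore given as a description without a test.

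Collectins are secreted or membrane-bound proteins that join a collagen-like stalk to a C-type lectin head and bind sugars on microbes and damaged cells. Those encoded by Mbl1, Mbl2, Colec10 and Colec11 are soluble and circulate in complexes with the MASP serine proteases. Once such a collectin or a ficolin has bound, these proteases cleave complement C4 and C2, which leads to the cleavage of C3. The liver is the main source of the mannose-binding lectins and of most complement proteins in plasma. Stellate cells lie around the sinusoids of the liver, where they store vitamin A and act as pericytes.

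The data are RNA-seq counts of whole mouse liver in 13 libraries. Controls were 6 livers that were not depleted of hepatic stellate cells, 3 male (replicates 1, 2 and 6) and 3 female (replicates 3, 4 and 5). The depleted group had 4 livers, 1 male (replicate 3) and 3 female. The remaining 3 livers, 2 male (replicates 1 and 2) and 1 female, were not depleted and were taken 72 h after partial hepatectomy, an operation that takes out a portion of the liver and is followed by regrowth. The strain, genotype and age of the mice and the way the cells were depleted are not given in the sources used here. No label states that the samples of a group came from separate animals, so p-values measure the spread between these samples.

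Library totals ran from 35360991 to 51008737 counts. Of 15 stellate cell markers, 14 were lower in depleted than in control livers at an adjusted p under 0.05 in edgeR and 1 was not called. Their summed level was 216 to 545 CPM in controls, where CPM is the count scaled by the TMM library size (the trimmed mean of M values). It was 14.5 to 99.95 CPM in depleted livers and 249 to 441 CPM after hepatectomy. In each of depleted replicates 1, 2 and 3, 6 of the 15 markers had 0 counts, among them Bmp5, Des, Hand2, Hhip and Tcf21. In depleted replicate 4 none was at 0, and its sum was the highest of the group. This library stands apart from the other 3, so values that rest on it are also given without it. None of 7 hepatocyte markers was called in either comparison with control. In bulk tissue, fewer cells of a type and less RNA per cell cannot be told apart.

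In control livers, levels per length of transcript (RPKM, CPM per kilobase of exon) had the order Mbl2, Mbl1, Masp2, Masp1, Colec11, Colec12 and Colec10. Mbl2, the mannose-binding lectin C gene, had a mean of 465 ± 131 RPKM (SD, n = 6). Mbl1, which encodes mannose-binding lectin A, had 198 ± 55.7 RPKM. Masp2, whose protease cleaves both C4 and C2, stood at 83.3 ± 17.5 RPKM, and Masp1, whose protease activates MASP-2, at 35.0 ± 9.86 RPKM. Colec11 (collectin kidney 1) reached 26.3 ± 6.95 RPKM, Colec12 (the membrane-bound collectin placenta 1, a scavenger receptor) 17.0 ± 2.72 RPKM and Colec10 (collectin liver 1) 11.8 ± 5.16 RPKM. The first 3 differed from each other and from Masp1 by more than the sum of their SDs. Each neighbouring pair from Masp1 down to Colec10 differed by less than the sum of their SDs. The place of Masp2 is uncertain, since its counted exons overlap those of Tardbp on the opposite strand.

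**Figure D1:**
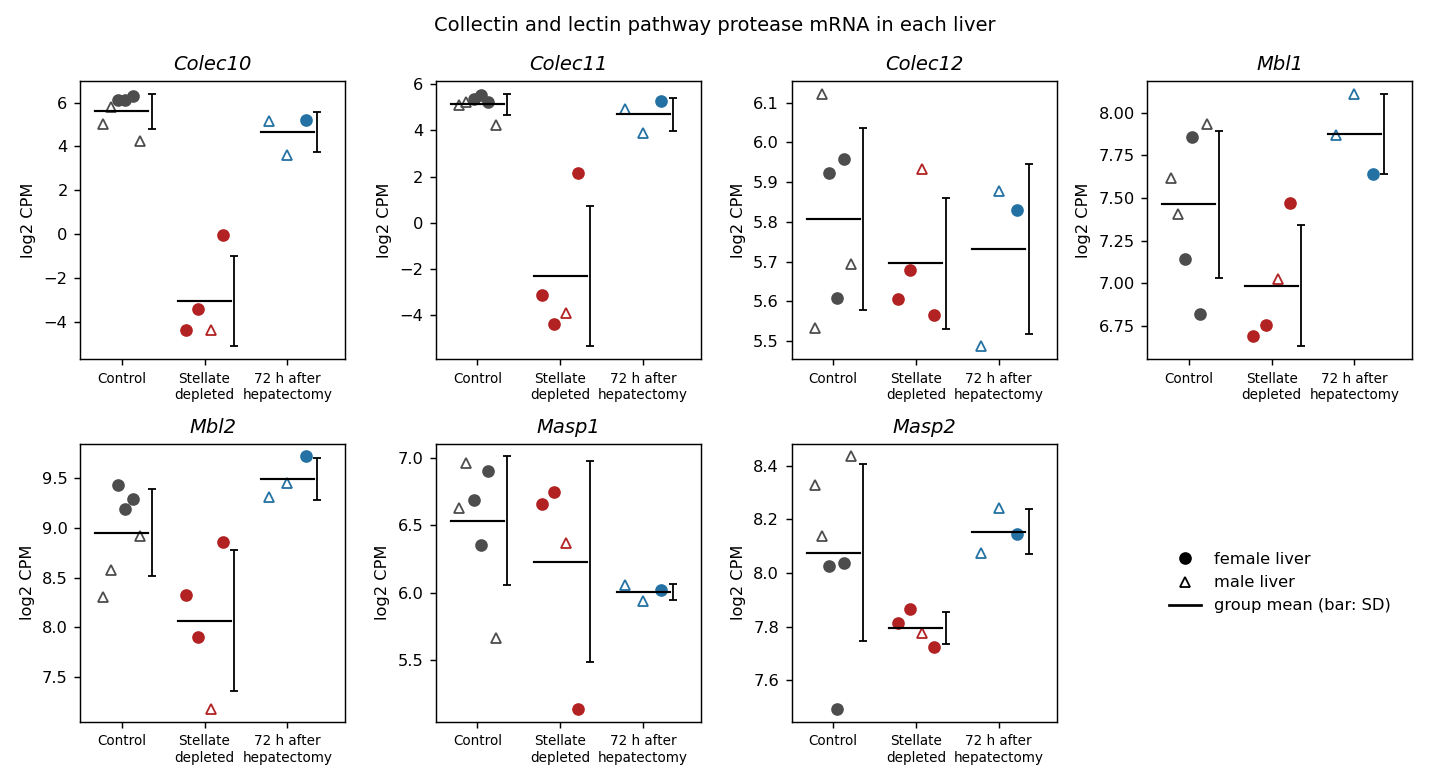
Each panel plots one gene as log2 CPM (prior count 2, so that libraries with 0 counts have a finite value) in each liver of the 3 groups, with females as filled circles, males as open triangles, the group mean as a line and the SD as a bar. The 4 depleted livers lie below every other liver for Colec10 and Colec11, whereas the groups overlap for the other 5 genes in the comparison with control.

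Colec10 lies on mouse chromosome 15 (GRCm38, the mm10 build, chr15:54410774-54466358, plus strand, 4587 exonic bases counted). It had 18.9 CPM in the lowest control, a median of 61.9 and 79.0 in the highest. In depleted livers the values were 0 CPM in replicates 1 and 3, 0.0448 in replicate 2 and 0.936 in replicate 4. Every depleted liver was thus below every control, and replicate 4 held nearly all of the transcript left in the group, with 42 counts against 2 in the other 3 libraries together. After hepatectomy the 3 livers had 35.2, 12.2 and 36.9 CPM, of which replicate 2 lay below every control and the others within the control range. The fitted difference between depleted and control livers was -8.13 ± 0.93 (log2 fold change ± SE), the second lowest of 13831 genes tested. Without depleted replicate 4 it was -11.77, a value that depends on how the fit treats counts near 0.

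Colec11 lies on chromosome 12 (chr12:28594173-28623290, minus strand, 1383 exonic bases). Its protein forms heteromeric complexes with that of Colec10 in plasma. Controls had a lowest level of 18.7 CPM, a median of 38.0 and a highest of 47.0. The depleted livers had 0.0643, 0, 0.0175 and 4.41 CPM in replicates 1 to 4, again all below the controls, with 198 counts in replicate 4 against 4 in the other 3 together. The hepatectomised livers had 30.2, 14.9 and 39.1 CPM, of which replicate 2 was again below every control and the others overlapped with them. That library also had the lowest sums of its group for stellate (249 CPM against 367 and 441), Kupffer cell (58.3 against 243 and 677) and sinusoidal endothelial markers (86.9 against 209 and 242), and their part in its values was not tested. The fitted difference between depleted and control livers was -5.47 ± 1.17, and -10.32 without depleted replicate 4. With the female livers alone it was -4.84.

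Of Colec10 and Colec11, the latter alone was found in the RefSeq promoter table (GRCm38.p6), which gives 250 bases before and 50 after the start of transcription for 4 of the 7 genes (Colec11, Mbl1, Mbl2 and Masp2). Its sequence is shown because it holds the E-box CAGCTG, a motif bound by basic helix-loop-helix factors such as the stellate cell factor Tcf21, more than once. The capitals mark the matches, which begin 109 and 2 bases before the start.
Colec11, chr12:28623281-28623580, minus strand: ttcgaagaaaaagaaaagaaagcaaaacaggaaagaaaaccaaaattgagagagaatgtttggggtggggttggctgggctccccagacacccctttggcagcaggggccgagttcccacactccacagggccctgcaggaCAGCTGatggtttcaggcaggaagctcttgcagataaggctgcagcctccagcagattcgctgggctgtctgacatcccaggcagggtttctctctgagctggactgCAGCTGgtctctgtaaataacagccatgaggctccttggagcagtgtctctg
Of 32851 promoters in the table, 16.3% held at least 1 CAGCTG on either strand and 1.90% held at least 2. The promoters of Mbl1, Mbl2 and Masp2 held none. The sequence AGATAA, recognised by factors of the GATA family, was found once in Colec11 and once in Mbl2 (11.2% of all promoters had it), and TTCNNNGAA, the STAT motif, once in Colec11 and once in Masp2 (8.30%). TATAAA (13.6%) and the FOXA motif TGTTTAC (3.65%) were in none of the 4. Both strands were searched, and no motif was counted as a binding site.

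Depleted replicate 4 kept different shares of the Colec10 and Colec11 transcripts. Relative to the control mean, it held 1.73% of the Colec10 level and 12.2% of the Colec11 level. The 15 stellate cell markers in the same library had a median of 8.82%, and the lowest was the vasoactive intestinal peptide receptor gene Vipr1 at 1.39%. One of these markers was below Colec10 and 8 were below Colec11. The summed level of 4 smooth muscle markers also set this library apart, at 11.7 CPM against 0.707 to 0.996 in the other 3 depleted livers and 5.79 to 18.9 in controls, and its part in these shares was not tested. Colec10 made up 17.5% of the summed counts of both genes in this library, with an exact (Clopper-Pearson) 95% interval of 12.9% to 22.9% that covers counting error only. In the 9 livers that were not depleted the share was 45.1% to 67.6%, all above that interval. With a single such library, no test over samples is possible. Long genes were also low relative to short ones in depleted replicate 4 (-0.34 by the measure given below for Masp1). Colec10 has 4587 counted exonic bases and Colec11 1383. The other libraries low by this measure had shares of 50.3% (control replicate 6) and 45.1% to 53.8% (hepatectomised), against 48.5% to 67.6% in the other controls. The part of gene length in the share was not tested.

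**Figure D2:**
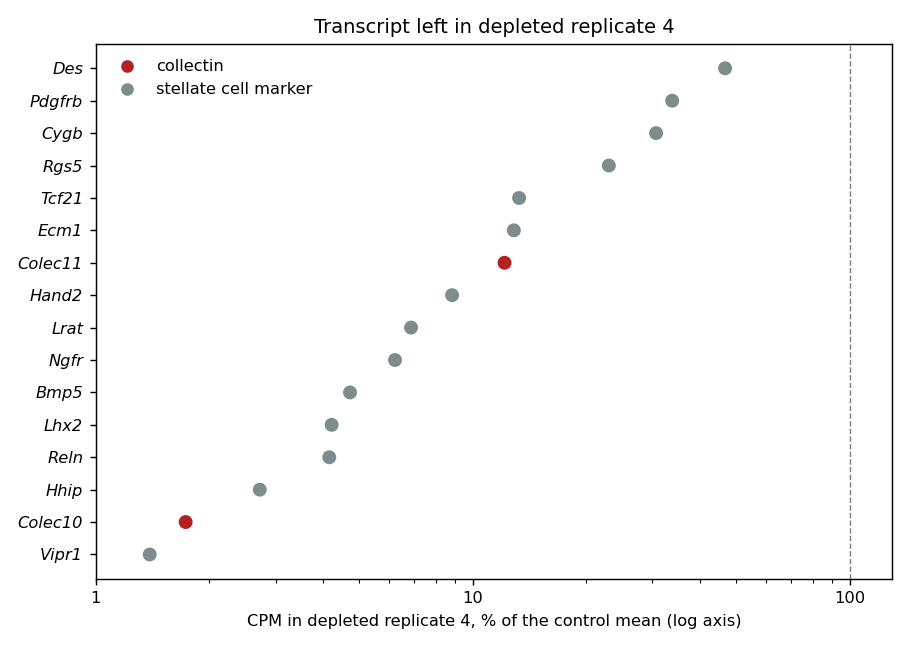
The points give the CPM of Colec10, Colec11 (red) and 14 of the 15 stellate cell markers (grey) in depleted replicate 4 as a percentage of the mean of the 6 controls, on a log axis, with the control mean as a dashed line. Colec10 at 1.73% sits next to the lowest marker, Colec11 at 12.2% lies near the middle, and all points shown are left of the control mean; 1 marker, above it, is not shown.

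Genes whose log2 CPM followed Colec10 most closely over the 13 libraries, among 10577 genes compared, were Bmp5 (Pearson r = 0.994), Vipr1 (0.991), Gucy1a1 (0.989), Ddr2 (0.988) and Pth1r (0.988). For Colec11 they were Rgs5 (0.993), Fhl1 (0.990), Bmp5 (0.989), Lhfp (0.989) and Pdgfrb (0.989). These values describe a split between 4 depleted and 9 other livers and carry no test. Over the 9 livers that were not depleted the leading genes were others, with Spag9 first for Colec10 (0.991) and Rsad2 first for Colec11 (0.967).

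Mbl1 lies on chromosome 14 (chr14:41151456-41158959, plus strand, 923 exonic bases) and Mbl2 on chromosome 19 (chr19:30232928-30239685, plus strand, 1101 exonic bases). Their promoters are shown because the paralogs share a stretch close to the start. The capitals mark the longest run that both hold on the same strand, 13 bases, which begins 23 bases before the start in Mbl1 and 57 before it in Mbl2.
Mbl1, chr14:41151206-41151505, plus strand: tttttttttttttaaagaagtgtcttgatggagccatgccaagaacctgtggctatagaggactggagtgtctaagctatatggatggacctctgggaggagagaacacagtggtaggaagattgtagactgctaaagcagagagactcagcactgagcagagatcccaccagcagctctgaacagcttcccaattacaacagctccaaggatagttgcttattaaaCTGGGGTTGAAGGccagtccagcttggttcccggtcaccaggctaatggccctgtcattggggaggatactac
Mbl2, chr19:30232678-30232977, plus strand: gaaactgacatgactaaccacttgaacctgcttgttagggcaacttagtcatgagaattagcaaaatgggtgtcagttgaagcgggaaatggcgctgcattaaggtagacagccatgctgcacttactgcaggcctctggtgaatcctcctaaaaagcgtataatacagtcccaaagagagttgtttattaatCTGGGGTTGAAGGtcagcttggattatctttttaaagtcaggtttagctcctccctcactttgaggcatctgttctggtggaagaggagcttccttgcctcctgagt
The run occurred in 3 of the 32851 promoters, and in the best 40-base window around it 34 bases (85%) were identical between the 2 genes.

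Mbl2 levels are given by sex, since male and female controls did not overlap. Female controls had 581 to 687 CPM and male controls 317 to 485 CPM. The depleted females had 320, 240 and 462 CPM and the depleted male 145 CPM, so that each lay below all controls of its sex, as for 15.9% of all genes. The hepatectomised males had 633 and 698 CPM and the female 840 CPM, each above all controls of its sex, as for 10.4% of all genes. With the sexes pooled, both groups overlapped with the controls. The fitted difference was -1.03 ± 0.21 between depleted and control livers. Between hepatectomised and control livers it was 0.66 ± 0.22, with an adjusted p of 0.0823 in edgeR, which misses the threshold of 0.05. The adjusted p was 0.0310 with DESeq2, 0.0432 with the depleted livers left out of the fit and 0.0298 without depleted replicate 4, and ran up to 0.693 over all settings tried.

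Mbl1 had 113 CPM in the lowest control, a median of 183 and 245 in the highest. The depleted livers had 103, 108, 130 and 178 CPM and the hepatectomised livers 233, 277 and 200 CPM. Both groups overlapped with the controls. The fitted difference from control was -0.42 ± 0.23 in depleted livers, and -0.62 without replicate 4, and 0.33 ± 0.24 (adjusted p = 0.423, edgeR) after hepatectomy. With the replicate number as a block the value in depleted livers was -0.44. The ratio of Mbl2 to Mbl1 per length ran from 1.35 to 4.64 over the controls. It was 0.933 to 2.60 in the depleted and 2.12 to 3.53 in the hepatectomised group. Its lowest value was in the depleted male.

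Colec12, on chromosome 18 (chr18:9707648-9877995, plus strand, 3322 exonic bases), showed the least spread of the collectins. Control livers had 46.3 CPM at the lowest, 56.2 at the median and 69.6 at the highest. The depleted livers had 48.6, 51.2, 61.1 and 47.3 CPM and the hepatectomised livers 44.8, 58.7 and 56.9 CPM. All 3 groups overlapped. The fitted difference was -0.11 ± 0.14 between depleted and control livers and -0.09 ± 0.16 (adjusted p = 0.786, edgeR) between hepatectomised and control livers. With scaling by library size alone the first was 1e-04, and with females alone the second was 0.0061, so neither kept its direction in every setting.

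Masp1 lies on chromosome 16 (chr16:23451785-23520590, minus strand, 2752 exonic bases). Counts per gene merge its splice products, of which one is a protease and another an inhibitor without protease activity. The lowest control had 50.6 CPM, the median was 101 and the highest 124. The depleted livers had 101, 108, 82.6 and 35.1 CPM, so that replicate 4 lay below every control and the others within the control range. The hepatectomised livers had 66.4, 61.3 and 64.9 CPM, below 5 of the 6 controls. The fitted difference from control was -0.26 ± 0.30 in depleted livers and -0.57 ± 0.34 (adjusted p = 0.322, edgeR) after hepatectomy. Without depleted replicate 4 the first was -0.02.

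Masp1 levels were low in the libraries in which long genes were low relative to short ones. For each library, the median log2 deviation of the 3124 longest of 12493 genes (at least 6073 exonic bases) was compared with that of the 3125 shortest (at most 2463). The 5 libraries in which this difference was lowest, control replicate 6, depleted replicate 4 and the 3 hepatectomised livers, were also the 5 lowest in Masp1, with 35.1 to 66.4 CPM against 81.9 to 124 in the other 8. The measure was -0.36 in control replicate 6, -0.34 in depleted replicate 4 and -0.24 to -0.11 after hepatectomy, against at least -0.0039 in the others. The part of this measure in the values of Masp1 and Mbl1, and in the share of Colec10 in depleted replicate 4, was not tested.

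**Figure D3:**
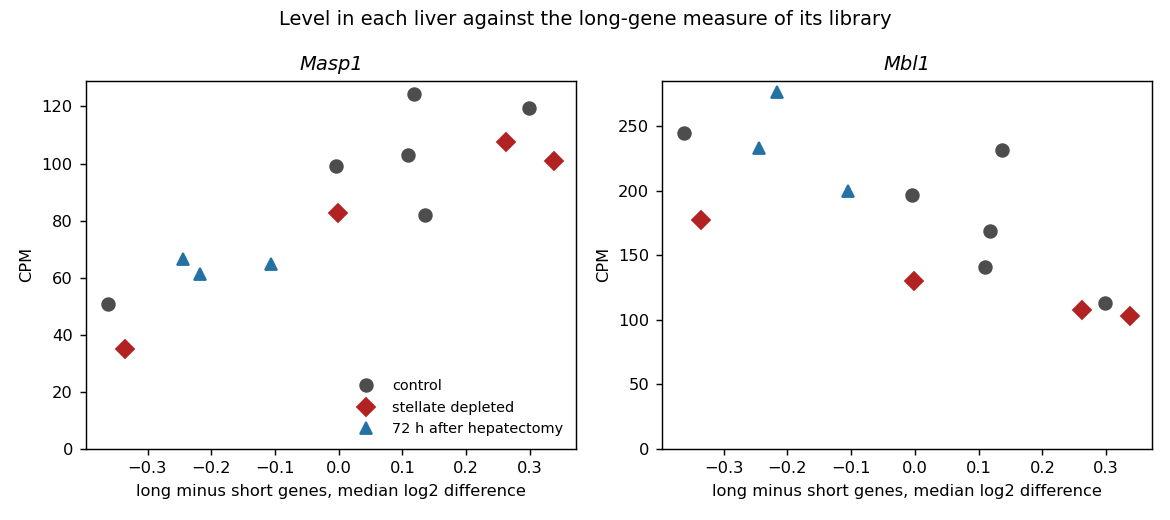
The panels plot the CPM of Masp1 and of Mbl1 in each of the 13 livers against the median log2 difference between long and short genes in the same library, with the groups as circles, diamonds and triangles. The 5 libraries at the left have 35.1 to 66.4 CPM of Masp1 and the other 8 have 81.9 to 124, and Mbl1 has its lowest values at the right.

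Masp2 lies on chromosome 4 (chr4:148602554-148615499, plus strand, 3307 exonic bases). Of its exonic bases, 1817 are shared with exons of Tardbp on the opposite strand, and the strand setting of the counting is not given in the sources used here, so its counts are uncertain. Controls had a lowest level of 180 CPM, a median of 272 and a highest of 346. The depleted livers had 225, 233, 219 and 211 CPM, all within the control range. The hepatectomised livers had 270, 303 and 283 CPM, again within it but above all depleted livers. The fitted difference was -0.24 ± 0.15 in depleted livers (-0.36 without control replicate 4) and 0.03 ± 0.16 (adjusted p = 0.936, edgeR) after hepatectomy.

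Of the 7 genes, 3 (Colec10, Colec11 and Mbl2) were past the threshold as lower in depleted than in control livers, against 33.9% of all genes in either direction and 15.0% as lower. The choice of genes rests on this contrast, so nothing is read from that count. Colec10 and Colec11 were the ones whose ranges did not overlap with the controls, which held for 11.9% of all genes in the lower and 28.4% in either direction. Of the 3 counted genes, Mbl2 had the smallest difference, and Mbl1 came next, at -0.42. The count depends on the setting, and ran from 2 to 4 over 23 alternatives. Over the 7 genes the median log2 fold change was -0.42, against -0.03 over all genes.

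In the comparison of hepatectomised with control livers, 0 of the 7 were called by edgeR, against 8.42% of all genes. At an unadjusted p under 0.05 there was 1, Mbl2, against 24.3% of all genes, and it was also the 1 gene of the 7 called by DESeq2, against 14.0% of all genes. All 7 overlapped with the controls in range, whereas 13.7% of all genes did not. The median of the 7 log2 fold changes was -0.09, against -0.02 over all genes. The difference for Colec10 was -0.68 ± 0.68 (adjusted p = 0.579) and that for Colec11 was -0.26 ± 0.95 (adjusted p = 0.906, edgeR), SEs that leave a change of either direction possible. The 15 stellate cell markers had a median of -0.30 in the same comparison, with 0 called.

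Between depleted and hepatectomised livers, 3 of the 7 were past the threshold as lower, against 23.4% of all genes in either direction and 10.1% as lower. These values are a description, since the same depleted livers entered the choice of genes. Colec10 differed by -7.44 (-11.04 without depleted replicate 4), Colec11 by -5.22 (-10.01 without it) and Mbl2 by -1.69 ± 0.26. Colec11 was no longer past the threshold with only these groups in the fit or with females alone, and Mbl2 was not with females alone. Mbl1 differed by -0.75 ± 0.27, and was past the threshold in 6 of 23 other settings, among them the replicate block, DESeq2 and the fit without depleted replicate 4. Masp2 differed by -0.27, and for each of these 5 genes all depleted livers were below all hepatectomised ones, as for 15.9% of all genes. Colec12 differed by -0.03 and Masp1 by 0.31, with overlapping ranges. Both comparisons with control share the 6 control livers, and their values are given side by side without a test between them.

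**Figure D4:**
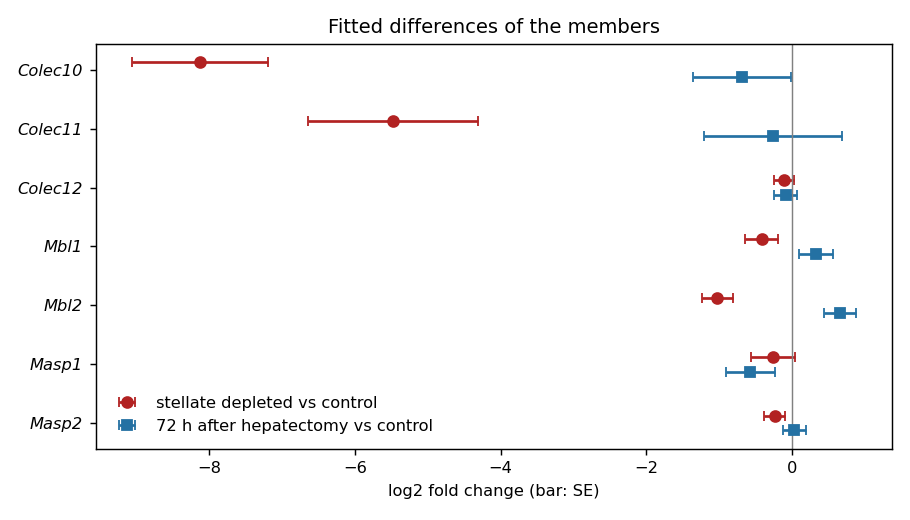
Points give the fitted log2 fold change of each gene against control and bars its SE, for depleted livers (red circles) and for livers 72 h after hepatectomy (blue squares). Colec10 at -8.13 and Colec11 at -5.47 stand apart in depleted livers, and Mbl2 lies at -1.03 and 0.66.

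Between male and female controls, 0 of the 7 genes were called by edgeR, against 0.738% of 13005 genes tested. At an unadjusted p under 0.05 there were 3, Colec10, Mbl2 and Masp2, against 13.2% of all genes. Mbl2 differed by -0.68 ± 0.19 (males minus females), with an adjusted p of 0.201 in edgeR and 0.0285 in DESeq2 (which called 3.42% of all genes), and each of the 3 males was below each of the 3 females. Such a separation in either direction held for 20.8% of genes. Colec10 had a mean of 35.4 ± 18.1 CPM in males and 72.7 ± 5.46 in females (SD, n = 3 each), a log2 difference of -1.04 ± 0.35 (adjusted p = 0.300, edgeR) without overlap. Without control replicate 2 it was -1.50, with an adjusted p of 0.0382, and without control replicate 6 it was -0.74. Over the 12 other settings the adjusted p ran from 0.0382 to 0.648. Control replicate 6, a male, had the lowest sums of stellate (216 CPM against 392 to 545 in the other controls), Kupffer cell (52.2 against 312 to 465) and sinusoidal endothelial markers (93.3 against 267 to 395), and their part in the difference was not tested. Masp2 was higher in each male than in each female, by 0.43 ± 0.18 (adjusted p = 0.366, edgeR). In the model of all 13 livers the sex term of Mbl2 was -0.74 ± 0.19 (adjusted p = 0.114, edgeR), when 1.03% of all genes were called. Its adjusted p was 0.0373 without depleted replicate 4 and 0.00407 in DESeq2, which called 2.96% of all genes.

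The partners of the pathway were followed in a list of 22 genes, of which 21 passed the filter on low counts and Cfd did not. In depleted livers 14 were higher than in controls, 0 were lower and 7 were not called, against 18.9% of all genes higher. One of the 14, Fcnb, passed the filter only through the depleted livers, and without it 13 of 20 were higher, with a median log2 fold change of 0.89. After hepatectomy 6 were higher, 0 were lower and 15 were not called, against 6.06% of all genes higher and 2.36% lower, and the median was -0.01. Markers of other cell types were higher after hepatectomy as well, namely 5 of 6 of portal fibroblasts and mesothelium (summed level 15.8 to 60.03 CPM against 3.42 to 9.46 in controls), 2 of 5 of cholangiocytes (87.02 to 95.4 against 49.1 to 92.99) and 2 of 4 tested of monocytes and neutrophils (14.8 to 26.5 against 1.15 to 6.18). Their part in the counts was not tested. The list was chosen with earlier results of these data known.

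Among the other recognition molecules, 1 of the 3 that did not rest on the depleted livers to pass the filter rose in depleted livers. This was Sftpd, the lung collectin surfactant protein D, which is not among the collectins named above as bound to MASPs. It had 0.240 to 1.08 CPM in controls with a median of 0.399, and 3.81, 2.67, 4.07 and 4.10 CPM in depleted livers, all above the controls, and 0.588, 0.253 and 0.249 after hepatectomy. Its difference in depleted livers was 2.84 ± 0.40 (adjusted p = 0.000197, edgeR), at a low level throughout. Fcnb, the ficolin B gene of myeloid cells, was at 0 in 5 of 6 controls with 1 count in the sixth, and had 12, 0, 17 and 20 counts in the depleted livers. It passed the filter on low counts only through the depleted group, so its counts are given as a description without a test. Over the same livers the summed level of 5 monocyte and neutrophil markers was 162 to 279 CPM in depleted livers against 1.15 to 6.18 in controls, with all 4 tested markers called higher, and its part in the result was not tested. Fcna, the plasma ficolin A gene, differed by -0.02 ± 0.47.

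C4b and C2, whose products the proteases cleave, and C3, whose cleavage follows, all rose in depleted livers. C4b, which has a near-identical copy with which reads could be shared, had 1931, 1920, 2323 and 1598 CPM in depleted livers against 573 to 1331 in controls (median 1106). The groups did not overlap, and the difference was 1.01 ± 0.18 (adjusted p = 0.00101, edgeR). C2 differed by 1.00 ± 0.25 without overlap. C3, the central complement component, had 21630, 22768, 16773 and 11134 CPM against 6347 to 13376 in controls (median 9777), so that replicate 4 lay within the control range, and differed by 0.85 ± 0.24 (adjusted p = 0.0143). After hepatectomy C3 had 24876, 18275 and 17152 CPM and C4b 1750, 2299 and 2009 CPM, all above the controls. The differences were 1.14 ± 0.26 for C3 (adjusted p = 0.0183) and 0.91 ± 0.19 for C4b (adjusted p = 0.0128, edgeR), whereas C2 differed by -0.21 ± 0.27.

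Serping1 encodes the C1 inhibitor, which also inactivates the MASPs. It had 1814, 1526, 2274 and 1633 CPM in depleted livers and 1493, 1373 and 1521 after hepatectomy, against 539 to 1011 in controls (median 833). Neither group overlapped with the controls. The difference was 1.25 ± 0.15 in depleted livers (adjusted p = 5.95e-05) and 0.83 ± 0.16 after hepatectomy (adjusted p = 0.00832, edgeR). Serpinc1 (antithrombin) and Tfpi (tissue factor pathway inhibitor), which can inhibit MASPs as well, were called in neither comparison.

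Of 6 regulators that act on deposited C4b and C3b, 3 rose in both comparisons with control. C4bp, the C4b-binding protein gene, had 1404, 1682 and 768 CPM after hepatectomy against 359 to 559 in controls (median 451). Its difference was 1.33 ± 0.16 there (adjusted p = 0.000546) and 0.48 ± 0.14 in depleted livers (adjusted p = 0.0226, edgeR), where it overlapped with the controls. Cfi, the factor I protease, differed by 0.48 ± 0.12 in depleted livers (adjusted p = 0.00975) and 0.85 ± 0.13 after hepatectomy (adjusted p = 0.00332, edgeR). Cd46, Cd55 and Cr1l were called in neither comparison.

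All 5 classical pathway counterparts rose in depleted livers and none was called after hepatectomy. C1qa, a subunit of the recognition molecule C1q made by macrophages, had 215, 193, 352 and 425 CPM in depleted livers against 12.1 to 68.8 in controls (median 52.0), and 75.9, 11.6 and 47.9 after hepatectomy. The differences in depleted livers were 2.64 ± 0.50 for C1qa, 2.58 ± 0.48 for C1qb and 2.58 ± 0.48 for C1qc. The proteases C1ra and C1s1, the counterparts of the MASPs, differed by 0.93 ± 0.19 and 0.68 ± 0.19. For 6 Kupffer cell markers the summed level was 52.2 to 465 CPM in controls, 58.3 to 677 CPM after hepatectomy and 570 to 1288 CPM in depleted livers, with 3 of 6 (Timd4, Marco and Adgre1) called higher in depleted livers. The list did not move as one. Clec4f had a mean of 111 ± 49.1 CPM in controls and 18.8 ± 33.8 in depleted livers (SD, n = 6 and 4), and Vsig4 35.2 ± 15.5 and 20.1 ± 6.70, neither called, whereas Marco had 11.4 ± 6.15 and 297 ± 92.2. The part of these markers in the C1q values was not tested.

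Without depleted replicate 3, the male of the group, 9 partners were called higher in depleted livers in place of 13, Fcnb left out of both counts, and the calls lost were those of C3, C4bp, Cfi and C1s1. The call of C4bp also ended without depleted replicate 4 (adjusted p = 0.0526) and without the sex covariate (0.34, adjusted p = 0.300, edgeR). With females alone the calls of C4bp (adjusted p = 0.255), C3 (0.201) and Cfi (0.115, edgeR) ended in depleted livers. After hepatectomy the call of C4b ended without hepatectomised replicate 2 or 3 (adjusted p up to 0.0811), that of C3 without control replicate 1 or hepatectomised replicate 1 or 2 (up to 0.0670) and that of Serping1 without hepatectomised replicate 3 (0.0568, edgeR). With the replicate number as a block, 2 of the 6 calls after hepatectomy held, those of C4bp and Cfi. The blocked values were 0.81 for C4b (adjusted p = 0.0609), 0.95 for C3 (0.137) and 0.77 for Serping1 (0.0583, edgeR), none of them past the threshold.

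**Figure D5:**
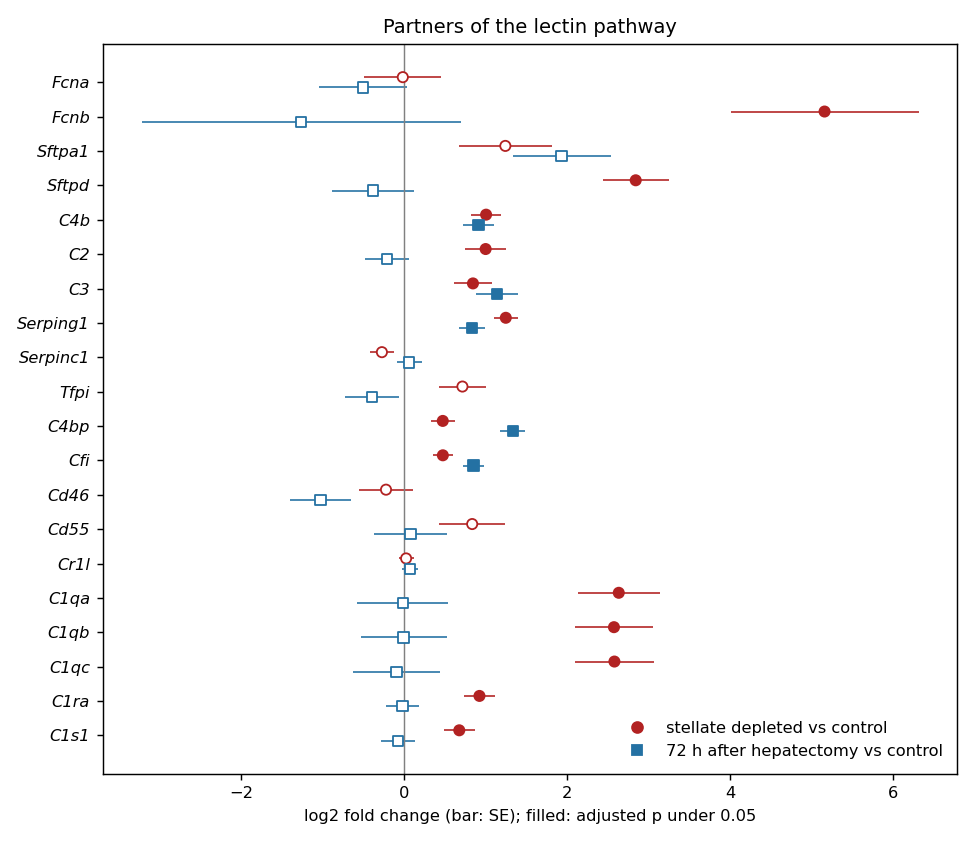
Points give the log2 fold change of 20 of the 21 tested partners against control and bars the SE, for depleted livers (circles) and livers 72 h after hepatectomy (squares), filled where the adjusted p was under 0.05. In depleted livers 13 of these points are filled, all to the right of 0, and after hepatectomy 5 are. The 13 include Fcnb, which passed the filter on low counts only through the depleted livers and is a description without a test. They are thus not the same 13 as those counted in the text without Fcnb.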

How the data were processed

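The authors deposited raw read counts per gene for 13 libraries (whole liver, TRIzol, stranded TruSeq mRNA libraries from 500 ng of RNA). The submitters' processing notes name STAR 2.7.1a, SAMtools 1.15.1, featureCounts 1.6.4 and mm10. The handling of strand and of multi-mapped reads is not given in the sources used here, and neither is a batch. Groups and sex came from the labels. Of 22048 gene identifiers 21741 matched a symbol.

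Counts were filtered with filterByExpr (13831 genes kept), scaled by TMM and tested two-sided in edgeR 4.0.16 (glmQLFTest, R 4.3.3), with group and sex over all 13 libraries. P-values were adjusted over all genes (Benjamini-Hochberg, threshold 0.05). Male and female controls were compared in the 6 controls alone. The likeness of genes is Pearson's r of log2 CPM (prior count 2). Alternatives included DESeq2 1.42.0, limma 3.58.1, other scaling, filters and sets of libraries. The members and lists were chosen with earlier results of these data known. Every member, and each listed partner past the threshold, is named, except 2 listed genes that are counted but not reported here by name. The genes most alike are the 5 of highest correlation with a mean log2 CPM of at least 1.

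At these totals 3 counts correspond to 0.0524 to 0.09 CPM. On simulated counts the test recovered 50.7% of 2-fold and 91.5% of 4-fold changes for depleted against control livers (13651 genes). For hepatectomised against control livers it recovered 47.0% and 89.7% (13662 genes). The simulation gave each gene the spread typical of its level and no sex difference. These shares therefore need not hold for a gene that varies more between livers.

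Replicate numbers come from the labels. Deviations from the group means of same-numbered control and hepatectomised livers correlated at 0.107 to 0.523 (3 pairs, each of 1 sex), and at -0.19 to 0.08 with sex removed. Control and depleted livers gave -0.34 to 0.07 (4 pairs), and -0.098 to 0.416 with sex removed. Depleted and hepatectomised livers gave -0.35 to -0.0012 (3 pairs), and 0.041 to 0.272 with sex removed. Pairs of unlike number, with sex removed, ran from -0.46 to 0.28 and from -0.32 to 0.16 in these comparisons, in that order. The main model has no block.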

Additional observations from a re-analysis of the deposited data

Results flagged for a closer look

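In 56 groups of 4 or 6 livers, the depleted and the control livers for the 7 genes and their 21 tested partners, the highest or lowest liver was compared with its nearest neighbour relative to the range of the group. The distance was over the 95% limit of Dixon's test in 5 groups. Chance flags about 1 in 20 groups, but the number found is not set against it, since Colec10 and Colec11 in depleted livers entered the choice of genes and a single count beside zeros, as for Fcnb, is always over the limit. Depleted replicate 4 had 0.936 CPM of Colec10 and 4.41 CPM of Colec11, far from the other 3 depleted livers, of which the next had 0.0448 and 0.0643 CPM. Control replicate 5 had 0.0234 CPM of Fcnb, a single count, where the other 5 controls had 0. Control replicate 4 had 1.08 CPM of Sftpd, and the next control 0.515 CPM. Control replicate 6 had 12.6 CPM of Fcna, and the next control 42.4 CPM.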

How the results depend on the processing

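In depleted against control livers, where the genes were chosen, Colec10 ran from -11.77 to -7.70 and Mbl2 from -1.25 to -0.81 over 23 alternatives, given as a description; DESeq2 gave Colec11 no adjusted p. Genes called there numbered 4692, or 2726 with females only, and 2960 (without depleted replicate 3) to 4928 with 1 library left out. Of the listed partners 14 were called there, and 9 to 15 with 1 library left out, where Fcnb did not pass the filter without depleted replicate 1, 3 or 4. With the replicate block, C3 (0.69, adjusted p = 0.119) and Cfi (0.42, adjusted p = 0.0778, edgeR) were not called there.

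Genes called after hepatectomy numbered 1164, or 632 with the replicate block, 90 with females only (1 hepatectomised liver, taken to vary like the others), 2192 with library size alone, 1939 with DESeq2 and 483 (without hepatectomised replicate 2) to 1458 with 1 library left out. It was 692 without control replicate 1 and 742 without control replicate 2. The 632 shared 549 genes with the 1164. Library size alone gave 626 higher and 1566 lower calls, against 838 and 326, and set the median of all genes to -0.24. Members called there numbered 0, or 1 with only the groups compared, 1 with DESeq2 and 0 to 1 (without depleted replicate 4) with 1 library left out. Partners called there numbered 6, or 2 with the block and 0 with females only.

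Between depleted and hepatectomised livers 3236 genes were called, or 2105 with only the groups compared, 1263 with females only and 1709 (without depleted replicate 3) to 3850 with 1 library left out, and 1 member in place of 3 with females only. The sex term called 142 genes, or 72 with the block, 410 with DESeq2 and 84 to 269 with 1 library left out (90 and 84 without control replicates 1 and 3, 269 without depleted replicate 4). The controls alone gave 96, or 445 with DESeq2 and 32 to 200 with 1 library left out, beyond 1.5 times for each control but replicate 4.

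The values that changed sign were all small. With library size alone, Colec12 was 1e-04 in depleted against control livers and 0.30 against hepatectomised ones, and Masp2 was -0.18 after hepatectomy and 0.049 in depleted against hepatectomised livers. Colec12 was 0.0061 after hepatectomy with females only and 0.047 between depleted and hepatectomised livers with the block. With 1 library left out, Colec12 ran from -0.163 to 0.031 after hepatectomy, from -0.165 to 0.056 between depleted and hepatectomised livers and from -0.224 to 0.086 between the sexes. Masp2 ran from -0.062 to 0.105 after hepatectomy and Masp1 from -0.44 to 0.14 between the sexes. The cause was not tested. The depth allows no statement on Colec10, Colec11 or Fcnb below 3 counts in a library.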
